A study of Mus musculus with 12 samples.

Results

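The genes described here are 10 imprinted genes that act on growth, H19, Igf2, Meg3, Dlk1, Peg3, Mest, Plagl1, Grb10, Ndn and Phlda2, picked by name from the 24421 genes of a table of RNA-Seq counts. They were picked for what is known of them as imprinted regulators of growth. All 10 were in the table, and 7 passed the filter on low counts and could be tested (H19, Igf2, Mest, Plagl1, Grb10, Ndn and Phlda2). Meg3, Dlk1 and Peg3 stayed below the filter, and their counts are given without a test.

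An imprinted gene is transcribed mainly from the copy inherited from the mother or from the copy inherited from the father, according to DNA methylation laid down in the germ line. Genes expressed from the paternal copy tend to favour growth of the fetus and placenta, and genes expressed from the maternal copy tend to restrain it. Many of these genes are high in the embryo and are lowered after birth, and several respond to the state of the cell cycle. Counts per gene do not separate the parental copies, so the values below are sums over both copies and say nothing of imprinting itself.

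The study asked how TFEB and TFE3, transcription factors of lysosomal and stress genes, take part in the response to DNA damage. It used MEFs (mouse embryonic fibroblasts, immortalised with SV40), either TFEB/TFE3 DKO, with both genes edited by CRISPR, or their control, labelled Null in the sample descriptions and WT in the paper. Cells of each genotype were left without drug or kept for 8 hr in 100 µM etoposide, which traps topoisomerase II on DNA and leaves double-strand breaks. Total RNA was sequenced from 12 libraries, 3 in each of the 4 groups. The groups are Null control, DKO control, Null etoposide and DKO etoposide. All were grown in high-glucose DMEM with 10% fetal bovine serum. The labels call the controls untreated, while the paper's methods name DMSO. Each genotype was 1 line, so that an effect of the edits and a difference between the lines cannot be told apart. Nothing in the labels states that the 3 samples of a group were separate cultures, so p-values measure the spread between these samples, which may be technical.

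Counts on genes per library were 83970210, 67654759 and 66956083 in Null control and 74826945, 104120871 and 66749645 in DKO control. After etoposide they were 75454495, 76125320 and 63286195 in Null MEFs and 45577023, 68441372 and 94388705 in DKO MEFs. Levels are given as CPM, counts divided by library size after TMM scaling and put on edgeR's usual scale, and as CPM per kb of summed exon length wherever genes are set against each other. At this depth 3 counts correspond to 0.0298 to 0.0607 CPM, depending on the library, and a gene with at most 3 counts in every library of a group was taken as at or under the floor there. Intervals and floors cover counting error only.

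The edited genes were read first, as a check of the labels. Tfeb was at 38.9, 39.2 and 42.1 CPM in Null control and at 4.60, 6.09 and 4.68 CPM in DKO control. After etoposide it was at 11.4, 10.2 and 10.4 CPM in Null MEFs and at 1.92, 1.61 and 2.20 CPM in DKO MEFs. Every DKO library was below every Null library of the same treatment. Tfe3 was at 115, 109.9 and 114 CPM in Null control, 94.1, 93.1 and 91.0 CPM in DKO control, 68.5, 69.6 and 68.1 CPM in Null etoposide and 70.7, 71.2 and 63.4 CPM in DKO etoposide. Its transcript was therefore still abundant in the DKO libraries, and a transcript level does not tell whether an edited gene still gives protein. The drug left a mark in both genotypes: the p53 targets Cdkn1a, Mdm2, Trp53inp1 and Bax, 4 of 4, rose after etoposide in Null and in DKO MEFs. Their median log2 fold changes were 3.43 and 2.52, against 0.07 and 0.14 for all genes. By the edgeR test 42.3% and 43.7% of all genes were higher in these comparisons.

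All 12 fibroblast markers that were looked up had counts. Their summed level was 8348 ± 106 CPM (mean ± SD, n = 3) in Null control, 14090 ± 398 in DKO control, 5056 ± 80.7 in Null etoposide and 6914 ± 144 in DKO etoposide, with Vim, an intermediate filament gene, the most abundant on average over the 12 libraries though not in DKO etoposide. By the edgeR test 33.3% of all genes were higher and 33.4% lower in DKO than in Null control, and 37.5% and 36.6% after etoposide. Of the 12 markers, 11 were higher and 1 lower without drug, and 10 higher and 2 lower after etoposide. Lower in both was Thy1, a surface marker of many fibroblasts, which stood at 4.21 ± 0.251 CPM in Null control and 0.0365 ± 0.0220 CPM in DKO control, and at 2.12 ± 0.243 and 0.129 ± 0.137 CPM after etoposide. Without DKO etoposide replicate 2, the highest of its group, the log2 fold change of Thy1 between the treated genotypes went from −4.02 to −5.30 and its interaction term from 2.77 to 1.49, no longer called. The marker sums thus differed between the groups, as did several of the genes below, and their part in those differences was not tested. In bulk RNA fewer cells with a transcript and less transcript per cell cannot be told apart.

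**Figure D1:**
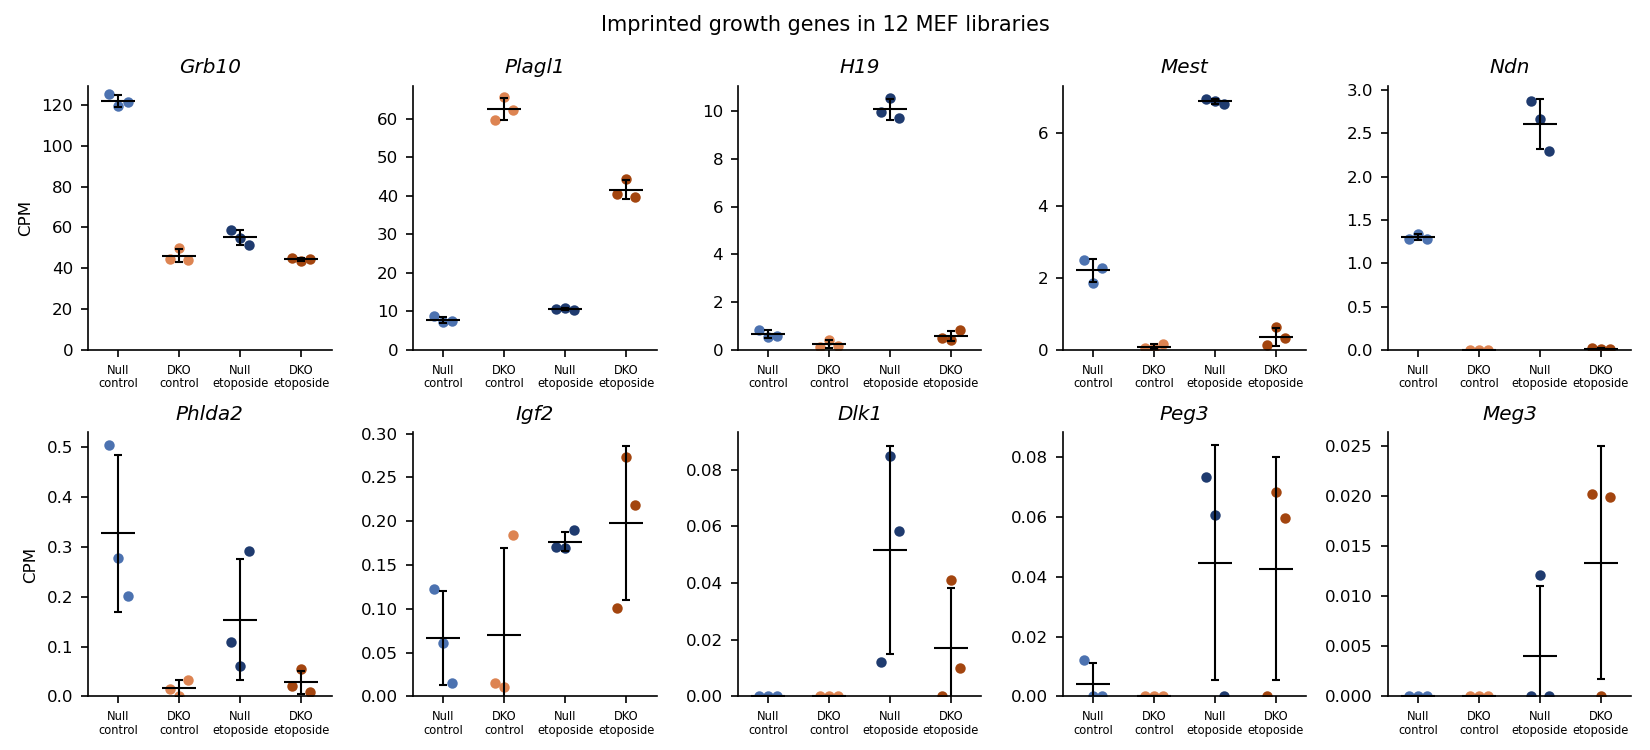
Counts of the 10 imprinted growth genes in each of the 12 libraries, as CPM on a linear axis with 1 panel per gene, 3 points per group and a bar at the group mean. Plagl1 lies between 59.8 and 65.6 CPM in DKO control against 7.18 to 8.80 in Null control, and H19 lies between 9.70 and 10.5 CPM in Null etoposide and below 1 CPM in every other library.

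Per length of transcript, Grb10 led in the Null MEFs and Plagl1 in the DKO MEFs. In Null control the order by CPM per kb was Grb10 (13.4 ± 0.319), Plagl1 (0.999 ± 0.111), Mest (0.560 ± 0.0817), Ndn (0.352 ± 0.00892), Phlda2 (0.292 ± 0.141), H19 (0.267 ± 0.0671) and Igf2 (0.0116 ± 0.00942). Ndn and Phlda2 did not differ beyond their spread there, nor did Phlda2 and H19, while the libraries of Ndn lay just above those of H19. In DKO control Plagl1 (8.00 ± 0.373 CPM per kb) stood above Grb10 (5.07 ± 0.348). H19 (0.1002 ± 0.0675 CPM per kb), Mest (0.0217 ± 0.0181), Phlda2 and Igf2 followed, neighbours overlapping within 1 SD. Null etoposide had Grb10 (6.06 ± 0.396 CPM per kb), H19 (4.09 ± 0.171), Mest (1.75 ± 0.0187), Plagl1 (1.35 ± 0.0279) and Ndn (0.706 ± 0.0794) in that order, each apart from the next by more than 1 SD of both. Plagl1 (5.32 ± 0.320) and Grb10 (4.88 ± 0.0864) were nearly level in DKO etoposide, ahead of H19 (0.238 ± 0.0817) and Mest (0.0919 ± 0.0625). Above the floor of 3 counts were 7 of the 10 genes in Null control, 5 in DKO control, 9 in Null etoposide and 7 in DKO etoposide.

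**Figure D2:**
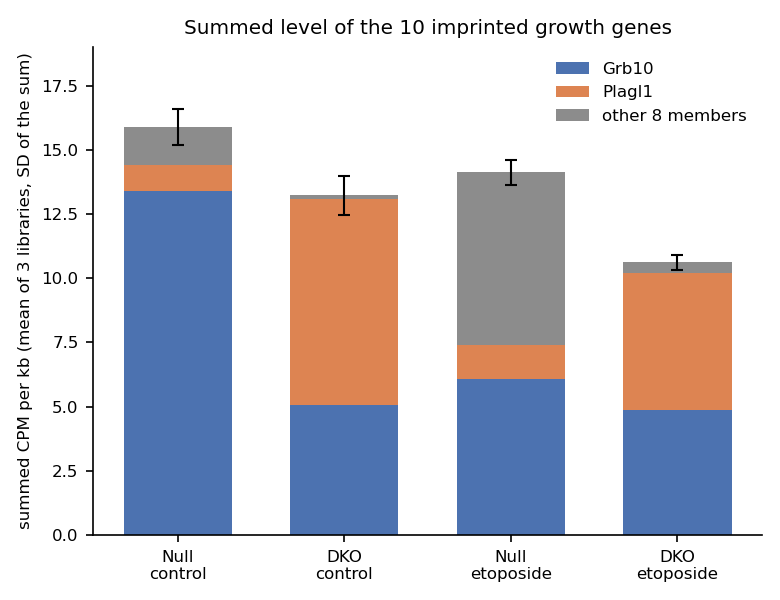
Summed level of the 10 genes in each group, in CPM per kb, as stacked bars (mean of 3 libraries, error bar 1 SD of the sum) divided into Grb10, Plagl1 and the other 8 genes. Grb10 makes up 84.4% of the sum in Null control and 38.3% in DKO control, Plagl1 60.5% in DKO control, and the other 8 genes 47.6% in Null etoposide.

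The stacked bars put the sum at 15.9 ± 0.695 CPM per kb in Null control, 13.2 ± 0.749 in DKO control, 14.1 ± 0.489 in Null etoposide and 10.6 ± 0.286 in DKO etoposide. The make-up moved more than the sum. Plagl1 took 6.29% of it in Null control, 60.5% in DKO control, 9.56% in Null etoposide and 50.2% in DKO etoposide. The other 8 genes took 9.33%, 1.13%, 47.6% and 3.78% in the same order, most of the third value being H19 and Mest.

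The first comparison is of the 2 genotypes without drug. In it, Plagl1 was 8.01-fold higher in DKO than in Null MEFs, while Grb10 was 2.65-fold lower, Mest 25.8-fold lower, and Ndn had 0 counts against 274. Of the 7 genes tested, 6 passed a threshold of 0.05 on the Benjamini-Hochberg adjusted p of the edgeR quasi-likelihood test: 1 was higher in DKO MEFs and 5 were lower. Among all 15220 genes tested, 66.7% passed in this comparison (33.3% higher, 33.4% lower), and with only 7 genes a count of 6 is too near that share to be read as a result about them. Their median log2 fold change was −1.40, against −0.02 for all genes, and stayed −1.40 with Ndn set to its bound.

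With both genotypes under etoposide the picture by direction was the same for the counts, 6 of 7 called with 1 higher and 5 lower in DKO MEFs, against 74% of all genes called (37.5% higher, 36.6% lower), a count near the background. H19 was now 17.2-fold lower in DKO MEFs, Mest 19-fold lower and Plagl1 3.94-fold higher. The median of the 7 genes was −2.37, against −0.00 for all genes. It is the value of Phlda2, which was −1.60 without Null etoposide replicate 3 and −3.31 without DKO etoposide replicate 2.

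Etoposide in Null MEFs raised H19 15.3-fold, Mest 3.12-fold, Ndn 2.01-fold and Plagl1 1.35-fold, and lowered Grb10 2.21-fold. There 6 of 7 genes passed (4 higher, 2 lower), against 79.4% of all genes (42.3% higher, 37.2% lower), a share near the background. The count includes Phlda2 and was 5 in the default form of the quasi-likelihood fit. Their median log2 fold change was 1.01 and that of all genes 0.07. In DKO MEFs the drug lowered Plagl1 1.504-fold and raised H19 2.38-fold and Mest 4.24-fold from low levels. Here 4 of 7 passed (3 higher, 1 lower), against 75.1% of all genes (43.7% higher, 31.5% lower), again too near to be read as a result about 7 genes. This count includes Igf2, was 3 in the default form, and was 2 without DKO control replicate 1 and 2 without DKO etoposide replicate 3. The median was 1.20, or 1.04 without Ndn, which was at the floor in both groups, against 0.14 for all genes. The value of 1.20 is that of H19, which was 0.77 without DKO etoposide replicate 3 and 2.00 without DKO control replicate 2.

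The make-up of the libraries differed between the groups too. Read pairs on no annotated feature were 25.1% to 27.3% of all pairs counted, summary lines included, in Null etoposide, against 22.5% to 24.2% in Null control, 20.2% to 21.1% in DKO control and 21.2% to 22.3% in DKO etoposide. Counts of the ribosomal RNA precursor Rn45s were 3.81% to 4.38% of counts on genes, against 2.20% to 2.89%, 1.66% to 1.95% and 2.98% to 3.58% in the same order. Genes with at least 1 count numbered 18871 to 19215 in Null etoposide, 15547 to 15822 in Null control, 14809 to 15200 in DKO control and 17912 to 19159 in DKO etoposide. The part of these differences in the changes of the imprinted growth genes was not tested.

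The response to etoposide differed between the genotypes, by the interaction term of the same model, for 3 of 7 genes: Grb10 (higher) and H19 and Plagl1 (lower). Of all genes 54% passed this test (29.6% higher, 24.4% lower), so the count among 7 genes is near the background and is not read as a result about them. The median of the 7 fitted interaction terms was 0.63 against 0.05 for all genes, but the terms of Ndn and Phlda2 rest on groups with at most 3 counts and are no bound. A gene that passed the filter only through the group where it is high had to differ, and the comparisons share groups, so none of these counts is independent of another.

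**Figure D3:**
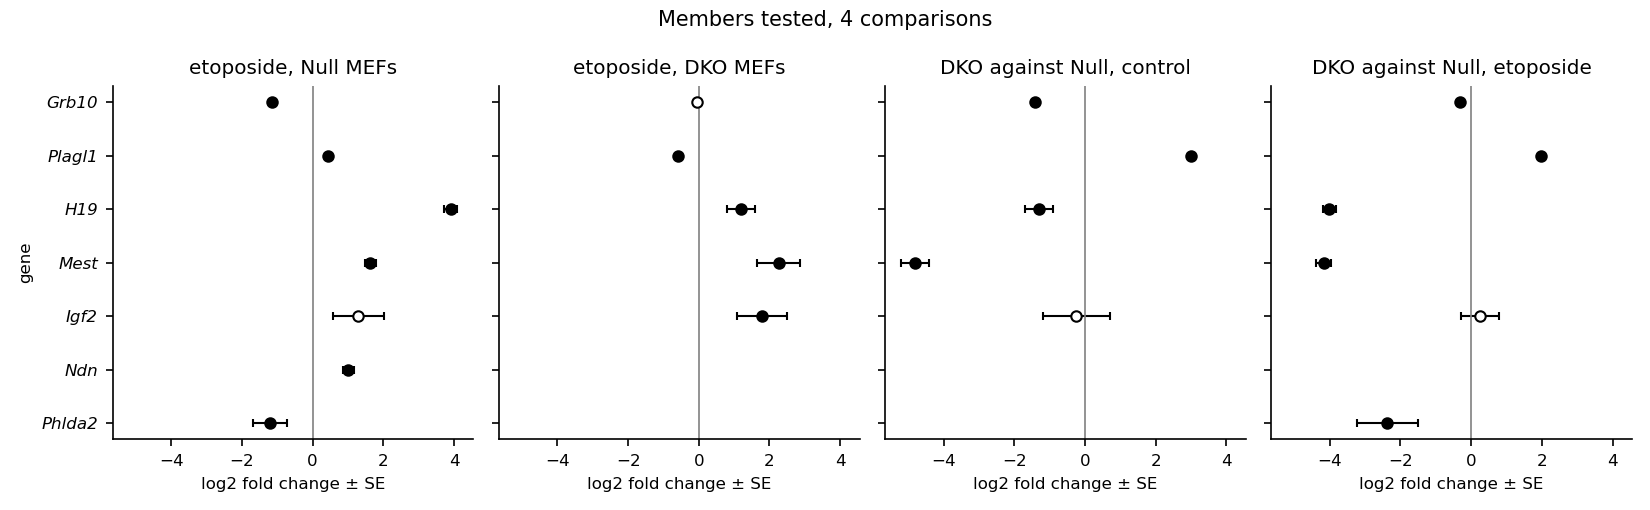
Log2 fold changes (edgeR fit, error bars 1 SE) of the imprinted growth genes in the comparisons, with filled points for genes past an adjusted p of 0.05 and open points for the rest. Plagl1 is at 2.99 and 1.98 in DKO against Null MEFs while Mest is at −4.81 and −4.17, and genes with at most 3 counts in a compared group are left out.

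How the libraries were scaled bears on small changes. With library size alone in place of TMM factors the median of all genes shifted by 0.17 log2 for etoposide in Null MEFs, 0.27 for etoposide in DKO MEFs, −0.12 for DKO against Null control, −0.02 after etoposide and 0.10 for the interaction. The share of calls that were higher went from 53.2% to 64.0% and from 58.1% to 75.6% for etoposide in Null and in DKO MEFs, from 49.9% to 38.4% for DKO against Null control, and from 54.8% to 65.2% for the interaction. DESeq2 size factors moved the median by −0.06 for the interaction and by −0.06 for DKO against Null MEFs after etoposide, and the shares of higher calls to 47.5% from 54.8% and to 45.4% from 50.6%. Under that scaling and under DESeq2 size factors, the one change of direction among the 7 genes tested was Grb10 with library size alone, for etoposide against control in DKO MEFs.

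The ligands come first. Igf2 encodes a secreted growth factor of the fetus that signals through the IGF1 receptor, and is expressed from the paternal copy (ENSMUSG00000048583.16, GRCm38 chr7:142650766-142666816, minus strand). It was close to silent. Its counts were 10, 4 and 1 in Null control, 1, 1 and 11 in DKO control, 14, 14 and 13 in Null etoposide and 5, 20 and 22 in DKO etoposide. Replicate 3 of DKO control stood above the other 2 of its group and overlapped the treated libraries, while all 3 Null etoposide libraries lay just above the Null controls. Mean levels were 0.0666 ± 0.0539, 0.0702 ± 0.0991, 0.177 ± 0.0112 and 0.198 ± 0.0879 CPM in that order of groups. For etoposide in Null MEFs the log2 fold change was 1.29 ± 0.72 (SE), with an edgeR adjusted p of 0.108, and 0.049 without DKO control replicate 3 (0.049 to 0.308 over the alternatives). Over the same alternatives this log2 fold change ranged from 0.86 to 2.14. For etoposide in DKO MEFs it was 1.79 ± 0.72 and the edgeR adjusted p was 0.0314, or 0.0684 in the default form of the quasi-likelihood fit and 0.102 with DESeq2, within a range of 0.00097 to 0.183 over all alternatives. Leaving out 1 library moved the latter value to 1.36 (adjusted p 0.112, DKO control replicate 1), 1.10 (0.183, DKO control replicate 2), 3.89 (0.00097, DKO control replicate 3), 1.54 (0.106, DKO etoposide replicate 2) or 1.73 (0.0822, DKO etoposide replicate 3) in the same edgeR test, and nothing is read from this call. Between the genotypes Igf2 did not pass the test with or without drug. Fbxo15, an F-box gene, was most like it (Pearson r 0.907 over 12 libraries). Its exons share 3694 bases with Gm49394 on the same strand and Igf2os on the other, and reads there could have been split between them or dropped.

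Dlk1 encodes a membrane protein related to the Notch ligands that holds back adipocyte differentiation, and is also paternally expressed (ENSMUSG00000040856.17, chr12:109452823-109463336, plus strand). It had 0 counts in all 6 libraries without drug. With etoposide it had 1, 7 and 4 counts in Null MEFs and 0, 3 and 1 in DKO MEFs. Replicates 2 and 3 of Null etoposide were thus the only libraries with more than 3 counts, and replicate 1 overlapped the DKO etoposide libraries. The 12 counts of Null etoposide amount to a level at least 1.20-fold higher than in Null control, the latter taken at its floor of 3 counts per library. In DKO MEFs both groups were at or under the floor.

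The noncoding RNAs of these domains behaved unlike each other. H19 is a long noncoding RNA expressed from the maternal copy of the Igf2 domain, 72623 bases from Igf2 (ENSMUSG00000000031.16, chr7:142575529-142578143, minus strand), and the host of miR-675. The mature strands of miR-675, from RefSeq on GRCm38.p6 (chr7:142577112-142577133 and chr7:142577078-142577099, minus strand, within an exon of H19), are shown because H19 had the largest rise after the drug in Null MEFs among the 7 genes tested. Capitals mark the seed.
mmu-miR-675-5p: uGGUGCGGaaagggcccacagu
mmu-miR-675-3p: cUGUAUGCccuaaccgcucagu
The entry of the miR-675 gene itself held 0 counts in all 12 libraries, so nothing here measures the miRNA.

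H19 stood at 0.848, 0.553 and 0.572 CPM in Null control and at 9.96, 10.5 and 9.70 CPM in Null etoposide. In DKO MEFs it was at 0.120, 0.435 and 0.185 CPM without drug and at 0.506, 0.437 and 0.814 CPM with it. The Null etoposide libraries were far above the other 9, and in DKO MEFs the highest control (0.435) lay just under the lowest treated library (0.437). In Null MEFs H19 rose by 3.90 ± 0.18 on the log2 scale (edgeR adjusted p 1.51e-12), in DKO MEFs by 1.20 ± 0.40 (0.0121, same test). The interaction term was −2.71 ± 0.52 with an edgeR adjusted p of 0.00028, and −1.89 (0.0324, the highest p over the alternatives, which went down to 9.08e-12) without DKO control replicate 2. The rise in DKO MEFs became 0.85 (edgeR adjusted p 0.0643) without DKO control replicate 1, 0.77 (0.143) without DKO etoposide replicate 3, and 2.00 (0.00174) without DKO control replicate 2, with a range of 0.00025 to 0.143 over the alternatives. DKO MEFs had less H19 than Null MEFs without drug, by a log2 fold change of −1.31 ± 0.39 (edgeR adjusted p 0.00728), and after etoposide, by −4.02 ± 0.18 (1.79e-12). The first of these was −1.06 (edgeR adjusted p 0.053) without Null control replicate 1 and −2.15 (0.000905) without DKO control replicate 2, with a range of 2.82e-05 to 0.053. Over the 12 libraries of 4 groups, as a description, the gene whose log2 CPM was most like that of H19 was Sbsn (Pearson r 0.988), with 15.5 ± 0.326 CPM in Null etoposide and 1.82 to 3.10 CPM on average elsewhere.

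Meg3, the maternally expressed noncoding RNA of the Dlk1 domain (ENSMUSG00000021268.17, chr12:109541001-109571726, plus strand), had 0 counts in all 6 libraries without drug, 0, 1 and 0 in Null etoposide and 1, 0 and 2 in DKO etoposide. No group exceeded the floor, and no fold is given. Rian, another noncoding RNA of the domain, named after its values were seen, that starts 32214 bases beyond Meg3, was above it: its total was 1 count in each control group, 215 in Null etoposide and 41 in DKO etoposide. That is 195-fold more after etoposide in Null MEFs (95% counting interval 34.6 to 7729) and 40.0-fold more in DKO MEFs (6.79 to 1619). Rian passed the edgeR test in both (adjusted p 4.95e-07 and 0.00276). It passed the filter on low counts only through the etoposide groups, where it is high, so these p-values are not separate support. The only counts of the control groups were in Null control replicate 3 and DKO control replicate 2. Without those libraries the fitted log2 fold changes of Rian went from 7.17 to 9.10 and from 4.88 to 6.72. Mirg, 158038 bases from Meg3, did not pass the test for etoposide in either genotype (edgeR adjusted p 0.591 in Null and 0.469 in DKO MEFs).

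Among the adaptors, Grb10 binds the activated insulin and IGF1 receptors and dampens their signal, and is expressed from the maternal copy in most tissues (ENSMUSG00000020176.17, chr11:11930508-12038683, minus strand). It was the most abundant of the 10 genes in Null MEFs per length. Its level was 125, 119 and 121 CPM in Null control and 58.7, 55.0 and 51.5 CPM in Null etoposide. In DKO MEFs it was 44.3, 49.7 and 44.2 CPM without drug and 45.2, 43.6 and 44.3 CPM with it. The Null controls were the only high libraries, and the other groups lay within 43.6 to 58.7 CPM, with the DKO groups overlapping each other. Grb10 fell by 1.15 ± 0.05 on the log2 scale after etoposide in Null MEFs (edgeR adjusted p 6.25e-13). In DKO MEFs the change was −0.06 ± 0.05 (edgeR adjusted p 0.326), or 0.22 (0.00118, in a range of 0.00118 to 0.716 over the alternatives) when libraries were scaled by size alone. The interaction term, 1.09 ± 0.07, passed the edgeR test with an adjusted p of 1.11e-09. The difference of DKO from Null MEFs was −1.40 ± 0.05 without drug (edgeR adjusted p 9.05e-14) and −0.31 ± 0.05 after etoposide (3.11e-05), so that the genotypes were closer after treatment. The gene with the most similar pattern was Zswim8 (Pearson r 0.989 over 12 libraries).

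Cobl, the next gene on the higher-coordinate side of Grb10 at 197925 bases, differed in the same direction between genotypes and by more. It had 1.41 ± 0.150 CPM in Null control and 0.0452 ± 0.0373 in DKO control, and 1.04 ± 0.243 and 0.0949 ± 0.0743 CPM after etoposide. Its log2 fold changes in DKO against Null MEFs were −4.75 (edgeR adjusted p 1.52e-08) and −3.21 (4.76e-07), moving to −5.78 without DKO control replicate 2 and to −3.98 without DKO etoposide replicate 3. Cobl passed the filter on low counts only through the Null groups, where it is high, so these p-values are not separate support. Unlike Grb10, Cobl did not pass the test for etoposide in Null MEFs (−0.42, edgeR adjusted p 0.0856), though it passed at −0.64 without Null etoposide replicate 1.

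Phlda2 encodes a small pleckstrin homology domain protein that limits growth of the placenta, expressed from the maternal copy (ENSMUSG00000010760.5, chr7:143501545-143503150, minus strand). It had 41, 18 and 13 counts in Null control, 1, 0 and 2 in DKO control, 9, 5 and 20 in Null etoposide and 1, 4 and 1 in DKO etoposide. The Null groups overlapped each other, and in both treatments the DKO libraries lay below the Null ones. With 3 counts against 72 the level in DKO control was 24.8-fold lower than in Null control (95% counting interval 8.15 to 123), and Phlda2 passed the edgeR test (adjusted p 4.45e-05). Only Null libraries, where it is high, carried Phlda2 past the filter on low counts, so its p-values between the genotypes are not separate support. After etoposide the difference was −2.37 ± 0.86 log2 (edgeR adjusted p 0.0169), from 34 and 6 counts. Without Null etoposide replicate 3 it was −1.60 (edgeR adjusted p 0.149), without DKO etoposide replicate 3 −1.81 (0.111) and without DKO etoposide replicate 2 −3.31 (0.0177), in a range of 0.00643 to 0.149 over the alternatives. The fitted difference without drug was −4.47, and −3.75 or −5.42 without DKO control replicates 2 or 3. Etoposide in Null MEFs gave −1.21 ± 0.48, with an edgeR adjusted p of 0.024, and 0.108 in the default form of the quasi-likelihood fit, 0.201 with DESeq2, 0.0752 with limma-trend and 0.0576 in a fit of the 6 libraries alone. By library left out, the value was −0.71 (edgeR adjusted p 0.255, Null control replicate 1), −1.04 (0.0824, Null etoposide replicate 1), −0.82 (0.134, Null etoposide replicate 2) or −1.99 (0.00275, Null etoposide replicate 3). The range over the alternatives was 0.00275 to 0.255, and nothing is read from that call. Cd200, a surface glycoprotein gene, had the pattern closest to Phlda2 (Pearson r 0.928 over 12 libraries).

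Slc22a18, a transporter gene 2211 bases from Phlda2, and Cdkn1c, a CDK inhibitor gene 40495 bases away, belong to the same imprinted cluster. Slc22a18 was at 0.701, 0.154 and 0.0927 CPM in Null control and at 6.98, 6.30 and 7.50 CPM in Null etoposide, and in DKO MEFs at 0, 0.0652 and 0.0839 CPM without and 0.223, 0.191 and 0.199 CPM with the drug. Cdkn1c averaged 3.16 ± 0.404 CPM in Null control, 1.03 ± 0.168 in DKO control, 10.5 ± 0.833 in Null etoposide and 1.72 ± 0.235 in DKO etoposide. Both rose after etoposide in Null MEFs, by log2 fold changes of 4.32 and 1.74 (edgeR adjusted p 3.72e-11 and 1.41e-10), whereas Phlda2 counts did not rise. Both were lower in DKO MEFs after etoposide, at −5.09 and −2.65 (edgeR adjusted p 2.07e-11 and 3.02e-12). Without drug they were at −2.73 and −1.63 (edgeR adjusted p 0.00739 and 2.01e-07). Without Null control replicate 1, the rise of Slc22a18 was 5.78 and its difference between the untreated genotypes was −1.26 and no longer called. Its rise after etoposide in DKO MEFs (1.96 on the log2 scale) and its interaction term (−2.35) did not pass (edgeR adjusted p 0.067 and 0.148), but passed under other settings, among them the leaving out of Null control replicate 1 (1.95 and −3.83).

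Of the nuclear proteins, Plagl1 was higher in DKO MEFs and Ndn was all but absent from them. Plagl1 encodes a zinc finger transcription factor that halts the cell cycle, expressed from the paternal copy (ENSMUSG00000019817.18, chr10:13060504-13131694, plus strand). Its level was 8.80, 7.18 and 7.46 CPM in Null control and 10.5, 10.8 and 10.4 CPM in Null etoposide. In DKO MEFs it was 59.8, 65.6 and 62.3 CPM without drug and 40.6, 44.5 and 39.8 CPM with it. No 2 of the 4 groups overlapped, and the order was Null control, Null etoposide, DKO etoposide, DKO control. Against Null MEFs, Plagl1 was higher in DKO MEFs by 2.99 ± 0.07 log2 without drug (edgeR adjusted p 1.91e-16) and by 1.98 ± 0.07 after etoposide (2.74e-14). Etoposide moved it in opposite directions, by 0.43 ± 0.08 in Null MEFs (edgeR adjusted p 7.26e-05) and by −0.59 ± 0.06 in DKO MEFs (7.18e-08), and the interaction term was −1.02 ± 0.10 (9.83e-08). Both directions held in all 21 alternatives, with ranges of 0.36 to 0.60 and −0.66 to −0.32. Mgll, a lipase gene, followed the same pattern most closely (Pearson r 0.996 over 12 libraries), with 3.05 to 5.12 CPM on average in Null and 37.5 to 78.5 CPM in DKO MEFs.

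The promoter of Plagl1 is shown because TFEB and TFE3 bind E-boxes, the letters CACGTG, and because this gene was the only one of the 7 called higher in DKO MEFs. The window runs from 250 bases before to 50 bases after the RefSeq start (chr10:13090582-13090881, GRCm38.p6, plus strand), and capitals mark the E-box, 182 bases before that start. This start lies inside the span of Plagl1 given above and not at its beginning, where no window was read.
Plagl1 promoter: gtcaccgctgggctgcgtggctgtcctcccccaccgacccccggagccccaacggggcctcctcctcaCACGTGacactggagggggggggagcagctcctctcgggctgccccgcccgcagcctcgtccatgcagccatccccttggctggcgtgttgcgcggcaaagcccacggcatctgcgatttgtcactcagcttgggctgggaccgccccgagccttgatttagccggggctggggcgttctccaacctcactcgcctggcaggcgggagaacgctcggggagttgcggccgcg
These letters read the same on both strands, and 7.15% of 32851 RefSeq promoter windows of this length hold them. The longer form TCACGTGA, which has the E-box at its core, is in 0.974% of them and not in this window. Promoter windows were found for 9 of the 10 genes (16 windows in all, none for H19), and the windows of the other 8 genes do not hold CACGTG, which says only that these letters are not in those windows. A match of letters is a description and not a site of binding.

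Ndn encodes necdin, a MAGE family protein that binds E2F factors and p53 and restrains proliferation, expressed from the paternal copy (ENSMUSG00000033585.5, chr7:62346569-62350262, plus strand, a single exon). It had 104, 87 and 83 counts in Null control, 0, 0 and 0 in DKO control, 235, 220 and 157 in Null etoposide and 1, 1 and 1 in DKO etoposide. Every Null library was far above every DKO library, and within Null MEFs the treated libraries were above the controls. Without drug the level in DKO MEFs was at least 30.4-fold lower, taken against 3 counts per library, and after etoposide it was 196-fold lower (95% counting interval 66.6 to 950.4, from 612 and 3 counts). Both differences passed the edgeR test (adjusted p 2.88e-10 and 2.25e-12). Ndn passed the filter on low counts only through the Null groups, where it is high, so these p-values are not separate support. The drug raised Ndn in Null MEFs by 1.01 ± 0.14 log2, from 1.30 ± 0.0329 to 2.61 ± 0.293 CPM (edgeR adjusted p 4.09e-06). Both DKO groups were at or under the floor, so a change there was not detectable at this depth, and the interaction was not called (edgeR adjusted p 0.345). Over the 12 libraries Nid2, a basement membrane gene, had the most similar pattern (Pearson r 0.999), although its DKO libraries kept 33.8 to 37.9 CPM on average. The promoter window of Ndn is shown since no other of the 10 genes differed as far between the genotypes (chr7:62348027-62348326, GRCm38.p6, plus strand, RefSeq). Its RefSeq start, too, lies inside the span given above and not at its beginning. The window has no capitals because it holds no CACGTG.
Ndn promoter: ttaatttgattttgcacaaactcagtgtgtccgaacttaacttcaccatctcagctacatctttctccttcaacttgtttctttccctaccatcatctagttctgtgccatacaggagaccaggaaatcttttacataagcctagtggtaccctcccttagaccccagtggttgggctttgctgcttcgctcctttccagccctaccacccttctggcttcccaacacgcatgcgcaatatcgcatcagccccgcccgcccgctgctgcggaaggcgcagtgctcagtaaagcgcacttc

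**Figure D4:**
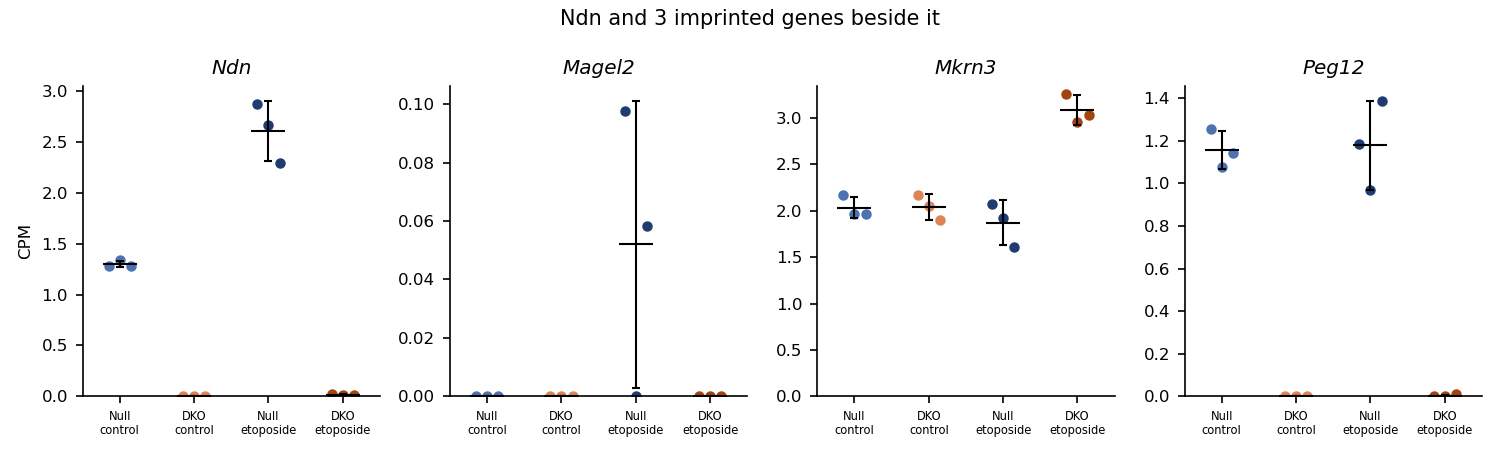
Levels of Ndn and of its imprinted neighbours Magel2, Mkrn3 and Peg12 in each of the 12 libraries (CPM, 3 points per group, bar at the group mean). Ndn and Peg12 are at 0.968 CPM or above in all 6 Null libraries and at or near 0 in all 6 DKO libraries, whereas Mkrn3 is between 1.60 and 3.26 CPM in every library.

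Of the paternally expressed neighbours in the same domain, Peg12 and Mkrn3 named after their values were seen and Magel2 for its position, Peg12 was low together with Ndn and Mkrn3 was not. Peg12, 111609 bases from Ndn, had 246 counts in Null control and 0 in DKO control, a level at least 27.1-fold lower against 3 counts per library. After etoposide it had 272 counts in Null and 1 count in DKO MEFs, 261-fold lower (95% counting interval 46.4 to 10330.0), the single count being in DKO etoposide replicate 3, without which the fitted log2 fold change went from −7.57 to −9.39. Mkrn3, 67331 bases from Ndn, was at 2.03 ± 0.115 CPM in Null control and 2.04 ± 0.136 CPM in DKO control, with a log2 fold change of 0.00 (edgeR adjusted p 1.0). After etoposide it was at 1.87 ± 0.240 CPM in Null and 3.08 ± 0.160 CPM in DKO MEFs, 0.70 higher in the latter (edgeR adjusted p 0.000111). Magel2, the nearest gene at 26748 bases, had 0 counts in every library except replicates 1 and 3 of Null etoposide, which held 12 between them. The plot of Ndn beside these neighbours shows the split library by library.

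Peg3 encodes a zinc finger protein tied to apoptosis and maternal behaviour, expressed from the paternal copy (ENSMUSG00000002265.16, chr7:6703892-6730431, minus strand). Its counts were 1, 0 and 0 in Null control, 0 in all 3 DKO controls, 6, 5 and 0 in Null etoposide and 0, 5 and 6 in DKO etoposide. In each genotype 2 of 3 treated libraries had counts above the floor and the third had none, so the groups overlapped. The ratio in Null MEFs, from 11 and 1 counts, was 9.97 (95% counting interval 1.45 to 428.9).

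Mest encodes an alpha/beta hydrolase fold enzyme of mesoderm and fat, expressed from the paternal copy, and is the host of miR-335 (ENSMUSG00000051855.15, chr6:30723547-30748465, plus strand). The mature strands of miR-335 lie in an intron (chr6:30741314-30741336 and chr6:30741354-30741375, plus strand, RefSeq on GRCm38.p6), and are shown because their host differed so widely between the genotypes. Capitals mark the seed.
mmu-miR-335-5p: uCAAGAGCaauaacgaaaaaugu
mmu-miR-335-3p: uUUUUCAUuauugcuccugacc
The miR-335 entry, like that of miR-675, was at 0 in all 12 libraries.

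Mest was at 2.50, 1.86 and 2.27 CPM in Null control and 0.0451, 0.0435 and 0.168 CPM in DKO control. After etoposide it was at 6.96, 6.90 and 6.81 CPM in Null MEFs and 0.142, 0.628 and 0.318 CPM in DKO MEFs. All Null libraries were above all DKO libraries, while the DKO groups overlapped, since DKO control replicate 3 exceeded DKO etoposide replicate 1. Against Null MEFs the log2 fold change in DKO MEFs was −4.81 ± 0.39 without drug (edgeR adjusted p 4.69e-09) and −4.17 ± 0.22 after etoposide (6.89e-12). Mest rose after etoposide by 1.63 ± 0.15 in Null MEFs (edgeR adjusted p 1.73e-08) and by 2.26 ± 0.60 in DKO MEFs (0.00266). The difference between those responses did not pass the test, at 0.63 ± 0.66 (edgeR adjusted p 0.454). Without DKO control replicate 3 the untreated difference was −5.60 and the rise in DKO MEFs 3.06. Parvb, an integrin-linked adhesion gene, was most like it (Pearson r 0.990 over 12 libraries), with 0.0260 ± 0.0360 CPM in DKO control and 8.01 ± 0.397 CPM in Null etoposide.

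Mest shares 912 exonic bases with Copg2 on the opposite strand. The libraries were stranded and paired-end, but the strand setting of the counting is not stated, so reads of the overlap cannot be assigned with certainty. Copg2, a coatomer gene, did not follow Mest: it was at 31.1 ± 0.918 CPM in Null control, 35.8 ± 0.853 in DKO control, 24.1 ± 0.206 in Null etoposide and 33.5 ± 1.11 in DKO etoposide. The same doubt holds for Igf2 with Igf2os, and for H19 and Meg3, whose exons overlap other noncoding RNA genes. Among genes named below, Airn overlaps Igf2r in position and Kcnq1ot1 lies within Kcnq1, so the doubt may reach them too.

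Other imprinted genes give these 10 a setting. A further 54 were listed, Snurf among them at 0 in every library, and 39 of these were tested. In DKO against Null control 29 passed (14 higher, 15 lower; median log2 fold change −0.03, or −0.23 with Peg12 at its bound and 3 genes at the floor in both groups left out). After etoposide it was 30 (12 higher, 18 lower; median −0.19). For etoposide 29 passed in Null MEFs (17 higher, 12 lower; median 0.12) and 29 in DKO MEFs (16 higher, 13 lower; median 0.12), and for the interaction 23 (13 higher, 10 lower; median −0.01). These shares were close to the background of all genes given above.

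**Figure D5:**
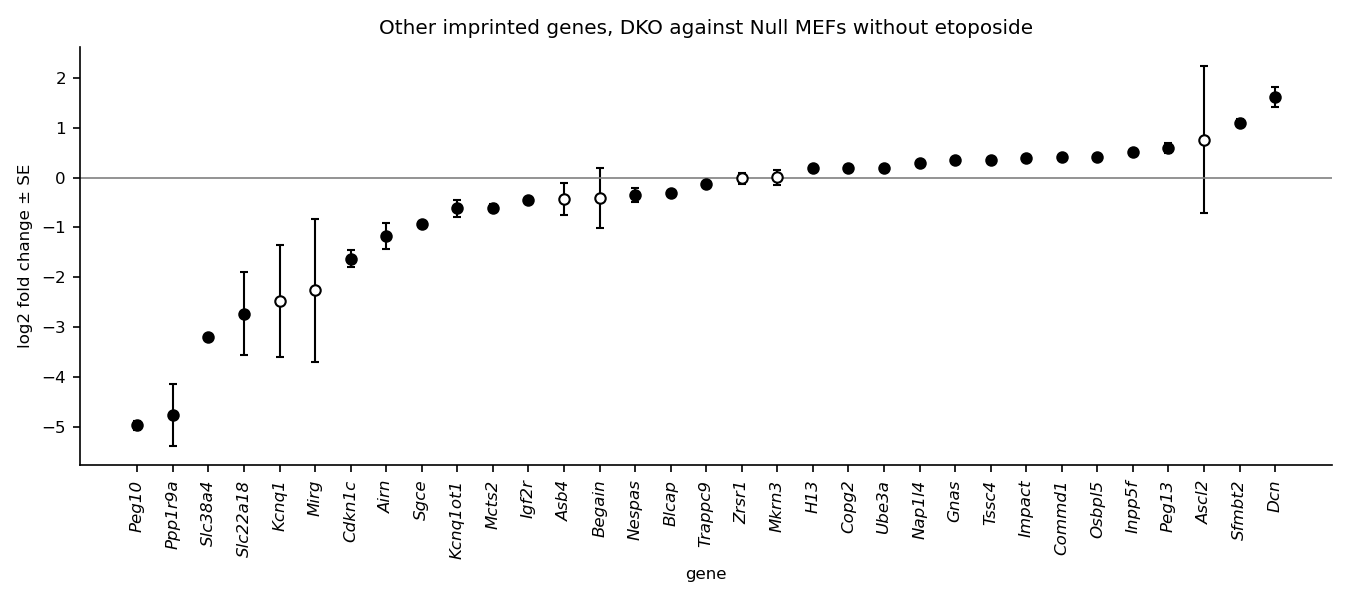
Log2 fold change of DKO against Null control for 33 other imprinted genes in order of size (edgeR fit, error bars 1 SE), filled where the adjusted p was below 0.05 (26 genes) and open where it was not (7 genes). The lowest is Peg10 at −4.98 and the highest Dcn at 1.62, and genes with at most 3 counts in either group are not drawn.

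The ranked plot leaves out Peg12, described above, which had 0 counts in DKO control. Lowest among the 33 genes drawn was Peg10, a retrotransposon-derived gene of the placenta. It was at 136, 135 and 123 CPM in Null control and 3.94, 4.23 and 4.34 CPM in DKO control, with no overlap, a log2 fold change of −4.98 ± 0.08 (edgeR adjusted p 4.22e-18). After etoposide it was at 73.0, 68.6 and 67.1 CPM in Null MEFs and 4.57, 5.14 and 3.63 CPM in DKO MEFs (−3.99 ± 0.08, edgeR adjusted p 6.73e-17). Slc38a4, an amino acid transporter gene, was likewise lower in DKO MEFs, at −3.21 without and −2.88 with drug (edgeR adjusted p 3.51e-18 and 2.44e-17). Sfmbt2, a Polycomb gene, fell after etoposide in both genotypes (−2.23 and −1.84, edgeR adjusted p 3.49e-14 and 1e-13). So did Kcnq1ot1, the noncoding RNA that silences the cluster of Phlda2 and Cdkn1c (−1.74 in Null and −0.54 in DKO MEFs, edgeR adjusted p 7.76e-08 and 0.00976), the second not called with limma-trend or with library size alone. Impact, a regulator of translation, rose in Null and in DKO MEFs (1.26 and 0.68, edgeR adjusted p 2.36e-13 and 1.71e-09).

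The IGF pathway around Igf2 and Grb10 was read from 25 genes, of which 20 were tested. After etoposide 17 passed in Null MEFs (6 higher, 11 lower; median −0.48) and 18 in DKO MEFs (6 higher, 12 lower; median −0.25), near the 79.4% and 75.1% of all genes. Igf1r, the receptor for both IGFs, fell in both (−2.41 and −2.14, edgeR adjusted p 3.23e-18 and 1.08e-17). Between the genotypes 16 passed without drug (7 higher, 9 lower; median −0.25, or −0.12 with 1 gene set to its bound and 1 at the floor in both groups left out) and 14 after it (6 higher, 8 lower; median −0.11), and 11 in the interaction (7 higher, 4 lower; median 0.10), where 66.7%, 74% and 54% of all genes passed. Igf2bp3, which binds Igf2 mRNA, was lower in DKO MEFs (−6.36 without and −3.84 with drug, edgeR adjusted p 2.07e-15 and 2.04e-12), and Igfbp4, a secreted IGF-binding protein, was higher (2.39 and 1.60, edgeR adjusted p 7.18e-19 and 6.78e-17). Igf2r, the imprinted receptor that clears IGF2, was at 189 ± 3.72 CPM in Null control, 138 ± 3.58 in DKO control, 132 ± 7.98 in Null etoposide and 118 ± 1.85 in DKO etoposide.

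Of 13 Notch pathway genes around Dlk1, 11 were tested, and 10 passed in each of the 4 comparisons of groups, where 66.7% to 79.4% of all genes passed. With 11 genes, a difference of this size from those shares is not read as a result. For etoposide 8 were higher and 2 lower in Null MEFs (median 0.91), and 6 higher and 4 lower in DKO MEFs (median 0.15). Between genotypes 4 were higher and 6 lower without drug (median −0.37), and 1 higher and 9 lower after it (median −0.89). The interaction had 8 calls (1 higher, 7 lower; median −0.46), where 54% of all genes passed (29.6% higher, 24.4% lower). The receptor gene Notch3 rose by 4.96 in Null and 4.50 in DKO MEFs, and the ligand gene Jag2 by 4.41 and 2.71 (edgeR adjusted p 9.38e-18, 1.03e-15, 1.06e-16 and 1.32e-11). Dlk1 itself never exceeded 7 counts.

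Genes that set or keep imprints (20, of which 18 were tested) had 16 calls for etoposide in Null MEFs (4 higher, 12 lower; median −0.29) and 16 in DKO MEFs (7 higher, 9 lower; median −0.13). In DKO against Null control there were 16 (5 higher, 11 lower; median −0.14), after etoposide 12 (8 higher, 4 lower; median 0.07), and in the interaction 13 (11 higher, 2 lower; median 0.23). The shares over all genes were 79.4%, 75.1%, 66.7%, 74% and 54% in that order, and with 18 genes these counts are not read against them as a result. Zfp57, a zinc finger protein that guards methylated imprints, was lower in DKO MEFs in both treatments (−1.66 and −1.58, edgeR adjusted p 5.98e-13 and 1.15e-12). Tet1, which oxidises methylated cytosine, rose after etoposide in Null and DKO MEFs (2.85 and 2.64, edgeR adjusted p 3.73e-12 and 9.14e-10). Tet3 fell in both (−1.78 and −1.10, edgeR adjusted p 1.18e-12 and 1.41e-09).

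Relatives of the 10 genes by protein family (10 in the table, 9 tested) gave 6 calls for etoposide in Null MEFs (3 higher, 3 lower, median −0.19). There were 9 in DKO MEFs (2 higher, 7 lower, median −0.95) and 6 in DKO against Null control (all higher, median 0.69). After etoposide there were 6 (2 higher, 4 lower, median −0.05), and in the interaction 6 (1 higher, 5 lower, median −0.61). Of all genes 42.3%, 43.7%, 33.3%, 37.5% and 29.6% were higher in that order, and 37.2%, 31.5%, 33.4%, 36.6% and 24.4% lower. Some counts lay away from these shares, but they were not tested against them. With 9 genes they are not read as a result. Phlda3, a p53 target and relative of Phlda2, rose in both genotypes (2.49 and 1.58, edgeR adjusted p 4.29e-17 and 1.36e-14). Phlda1, also a relative, fell after etoposide in DKO MEFs (−2.53, edgeR adjusted p 1.18e-13). Maged1, a relative of Ndn, was higher in DKO than in Null MEFs (0.92 without and 0.54 with drug, edgeR adjusted p 1.07e-13 and 1.34e-10), opposite to Ndn. Maged2, another relative, was lower in DKO MEFs after etoposide (−0.83, edgeR adjusted p 9.14e-13), as Ndn was.

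The surroundings of each gene were counted within 500 kb on both sides. Of 14 tested genes around H19, 9 passed in DKO against Null control (all higher, where 33.3% of all genes were higher) and 9 in the interaction (all lower, median log2 value −1.07, where 24.4% of all genes were lower). The same window had 9 higher and 1 lower for etoposide in Null MEFs (42.3% and 37.2% of all genes). It had 3 higher and 6 lower for etoposide in DKO MEFs (43.7% and 31.5% of all genes). In DKO against Null MEFs after etoposide there were 3 higher and 5 lower (37.5% and 36.6% of all genes). The window thus leaned to 1 side in some comparisons and not in others. Around Plagl1 7 of 9 passed in DKO against Null control, all higher (median log2 fold change 0.25), where 33.3% of all genes were higher. After etoposide 8 of 9 passed, 6 higher and 2 lower, where 37.5% of all genes were higher and 36.6% lower. Far above that median was Phactr2, a gene for a phosphatase and actin regulator 76023 bases from Plagl1, named after its values were seen. It was higher in DKO MEFs by 2.70 without drug and by 2.21 after etoposide (edgeR adjusted p 5.48e-15 and 5.26e-14), so Plagl1 was not alone in its window in being far higher in DKO MEFs. Etoposide moved Phactr2 by −0.25 in DKO MEFs, or 0.0212 and not called with library size alone, and by 0.23 in Null MEFs, not called without Null control replicate 1 (0.19) or 3 (0.14) or Null etoposide replicate 1 (0.15) or 2 (0.22). Around Phlda2 12 of 19 passed in DKO against Null control, 7 of them higher and 5 lower, where 66.7% of all genes passed. This window leaned as that of H19 did in 2 comparisons. For etoposide in Null MEFs 11 were higher and 3 lower (42.3% and 37.2% of all genes). In the interaction 2 were higher and 10 lower (29.6% and 24.4% of all genes). For etoposide in DKO MEFs 5 were higher and 6 lower, and in DKO against Null MEFs after etoposide 6 and 8. The Ndn window had only Peg12 and Mkrn3 to test. Windows of neighbouring genes overlap, genes in a window were not tested as a set, and the counts are given as a description.

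Markers of other cell types were summed in each library, since some of them moved with the genes above. The 8 macrophage and blood markers summed to 17.9, 19.3 and 16.1 CPM in Null control, 9.31, 7.89 and 7.55 in DKO control, 78.3, 77.7 and 77.7 in Null etoposide and 14.97, 12.4 and 15.1 in DKO etoposide. Most of this was Cd14 (64.4 ± 0.740 CPM in Null etoposide), and Tyrobp was at or below the floor in all groups. The 6 muscle markers summed to 3.00, 3.04 and 3.38 CPM, 3.90, 4.60 and 3.86 CPM, 34.7, 38.9 and 40.1 CPM, and 5.08, 4.04 and 4.89 CPM in the same order of groups. Nearly all of the third group's sum was Des (36.3 ± 2.69 CPM), with Myf5 at 0 in every library. Acta1 of the same list went the other way, by −0.78 log2 for etoposide in Null and −0.96 in DKO MEFs (edgeR adjusted p 0.0335 and 0.000177). The first was not called with library size alone. Acta1 was also higher in DKO than in Null MEFs, by 1.91 without and 1.73 with drug (edgeR adjusted p 4.17e-07 and 1.78e-05). Both sums were thus highest in Null etoposide, as H19 and Mest were, and their part in those levels was not tested.

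Mean sums for the remaining lists follow the order Null control, DKO control, Null etoposide and DKO etoposide, and the gene leading a list is the one with the highest mean over the 12 libraries, which need not lead in each group. Endothelial markers (6, led by Tek) were at 0.130, 0.133, 2.73 and 1.22 CPM, and pluripotent and trophoblast markers (6, led by Nanog, with Prl3d1 at or below the floor) at 0.98, 0.868, 1.01 and 0.564 CPM. Neural markers (5, led by Nes) were at 346, 147, 383 and 179.8 CPM, with the Null groups high as for Ndn. Adipocyte markers (6, led by Cebpa) were at 11.2, 29.8, 26.9 and 47.6 CPM, and epithelial markers (7, led by Krt19) at 16.3, 36.7, 24.3 and 16.4 CPM. Sex-linked genes (6, led by the Y-linked Ddx3y) were at 159.8, 369, 158.9 and 345 CPM, higher in DKO than in Null MEFs as Plagl1 was. Whether any of these bears on the levels of the imprinted growth genes was not tested.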

How the data were processed

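Total RNA of the 12 MEF libraries had been sequenced from stranded, paired-end libraries. The deposited values are raw counts of read pairs per gene, which the authors made with HISAT2 and then HTSeq according to the paper. Their processing notes name featureCounts and mm10 instead, and the table ends in 5 summary lines of the HTSeq kind, which were left out. No version is given, nor how strands were treated in counting. The shallowest library had 45577023 counts on genes and the deepest 104120871 (median 71634158.5). Positions and exon lengths came from GENCODE M21 (GRCm38), found for 23350 symbols directly and for 650 by synonym, with 421 unmatched.

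Genes with low counts were removed with filterByExpr by group, leaving 15220. All libraries entered a single edgeR 4.0.16 model (R 4.3.3) with TMM factors and quasi-likelihood F tests (glmQLFit with legacy=FALSE). Adjusted p-values are Benjamini-Hochberg over all genes tested, with a threshold of 0.05, and the intervals are 95% counting intervals. The default form of glmQLFit was run first. The form used was chosen with the calls of the 10 genes under both forms already seen, because earlier processing of these data used it. The alternatives were DESeq2 1.42.0, limma-trend (limma 3.58.1), DESeq2 size factors, library size alone, no filter, a filter at a mean of 1 CPM, the default form, a replicate block, the 6 libraries of a comparison alone, and each of 12 libraries left out. The calls were first tested on simulated data.

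The 10 genes and the lists were chosen with earlier results of these data known. Named genes were the 10, Tfeb, Tfe3, the 4 p53 targets, and per list and comparison at most 4 genes past the threshold with the largest absolute log2 fold change and a mean of at least 1 CPM. The most abundant gene of each marker list and the gene most like each tested gene by Pearson r were also named. The rule also took the nearest gene on each side, of which only some are named. Thy1, Rian, Mirg, Peg12, Mkrn3, Igf2r, Copg2 and Phactr2 were chosen after their values were seen. Promoter and miRNA sequences are from RefSeq, where 9 of the 10 genes had a promoter. Reads, splicing and the parental copies were not analysed here.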

Additional observations from a re-analysis of the deposited data

Results flagged for a closer look

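The response to etoposide differed between Null and DKO MEFs, by the edgeR interaction term, for the 28 genes given here, which are those past the threshold among the imprinted growth genes, the edited genes and the p53 targets, and at most 4 from each of 5 gene lists. Other genes named above differed as well, among them Mkrn3 (0.70), Igf2r (0.30) and Copg2 (0.27). Each value is the log2 change in DKO MEFs minus that in Null MEFs. Among the imprinted growth genes these were H19 (−2.71), Plagl1 (−1.02) and Grb10 (1.09). H19 and Grb10 changed less in DKO than in Null MEFs, and Plagl1 changed in opposite directions. Without DKO control replicate 2 the value of H19 was −1.89.

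Among other imprinted genes the values were 1.20 for Kcnq1ot1, −1.02 for Cdkn1c, 0.99 for Peg10 and 0.97 for Airn, the antisense RNA of Igf2r. Airn was not called without Null control replicate 2 (0.87) or 3 (0.98), DKO control replicate 2 (0.84) or 3 (1.00), Null etoposide replicate 2 (0.70), or DKO etoposide replicate 1 (0.82) or 3 (1.01).

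In the IGF pathway the values were 2.52 for Igf2bp3, 1.16 for Stc2, −0.99 for Irs1 and 0.93 for Igf2bp2. Among Notch pathway genes they were −2.87 for Dll1, −1.70 for Jag2, −0.82 for Dlk2 and −0.79 for Hes1. Genes that set or keep imprints gave 1.04 for Dnmt3b, 0.91 for Tet2, 0.68 for Tet3 and 0.50 for Arid4b. Protein family relatives gave −2.34 for Phlda1, −0.91 for Maged2 and −0.91 for Phlda3.

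The edited genes differed as well, by 0.49 for Tfeb and 0.28 for Tfe3. Tfeb was not called without DKO control replicate 1 (0.40) or DKO etoposide replicate 3 (0.32). The p53 targets gave −0.34 for Cdkn1a, −1.48 for Mdm2, −1.17 for Trp53inp1 and −0.92 for Bax.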

How the results depend on the processing

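Over 714 alternative values for the 7 imprinted growth genes tested, 694 kept their side of the threshold, 18 lost the call, 1 gained it and 1 reversed into a call. Of the 694, 7 changed sign without being called. Among them was Igf2 in DKO against Null control (−0.24, from −2.35 to 0.61 over the alternatives) and in the interaction (0.50, from −0.36 to 2.61). The others were Phlda2 for etoposide in DKO MEFs (0.89, to −0.06) and Ndn in the interaction (2.15, to −0.37). The reversal was Grb10 for etoposide in DKO MEFs, at 0.22 with library size alone. Among the other named genes 3666 of 3725 values kept their side of the threshold, 37 lost the call, 19 gained it and 3 reversed, for etoposide in DKO MEFs with library size alone: Igf2r at 0.0529 and Phactr2 at 0.0212, no longer called, and Copg2 at 0.17, called. The median of all genes shifts under that scaling. With 1 library left out in turn, the number of the 7 genes called for etoposide in DKO MEFs ranged from 2 to 4. Igf2 lost its call without DKO control replicate 1 or 2 or DKO etoposide replicate 2 or 3. H19 lost its call without DKO control replicate 1 or DKO etoposide replicate 3. What sets those libraries apart was not tested.

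Phlda2 for etoposide in Null MEFs and Igf2 for etoposide in DKO MEFs were called with the form of the quasi-likelihood fit used here, chosen with both results seen, and not with its default form, run first (edgeR adjusted p 0.108 and 0.0684, within 0.00275 to 0.255 and 0.00097 to 0.183 over the alternatives). Nothing is read from either call alone, but both are in the counts of 6 and 4 of the 7 genes, which are 5 and 3 in the default form.

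With the replicate number as a replicate block the 7 genes had 6, 4, 6, 6 and 3 calls for etoposide in Null MEFs, etoposide in DKO MEFs, DKO against Null control, the same after etoposide, and the interaction, as without it. Libraries with the same number were not more alike (r from −0.032 to 0.0429 over 18 pairs). A library with 3 counts of a gene is at the floor used here, so that Meg3, Dlk1, Peg3, Igf2, and Ndn and Phlda2 in DKO MEFs, are limited by depth. The stricter filter removed Igf2 and Phlda2, so they have no value there, nor do genes that other settings filtered out.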
